A study of Mus musculus with 12 samples.

Results

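The response described here is that of wild-type F9 cells to retinoic acid (RA), read across the whole genome after 24 h. F9 is a mouse teratocarcinoma line, and its stem cells turn into cells that resemble endoderm of the early embryo when RA is added. The sample labels alone decided which arrays belong to the comparison: 3 arrays of wild-type F9 cells given 1 µM RA under dim light, and 3 arrays of wild-type F9 cells given the ethanol vehicle. These are 6 of the 12 Affymetrix mouse arrays of the study. The other 6 arrays hold F9 cells labelled RAR gamma knock out under the same treatments, and they enter through the shared estimate of spread and through the last comparison of the results. All groups grew in DMEM with serum. No label says whether arrays of the same group stem from different cultures. The p-values therefore reflect the spread among arrays, which may be technical, and 3 arrays a group limit the precision. As a tumour line kept in culture, F9 is a model of stem cell differentiation without the neighbouring tissues of an embryo.

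The 12 arrays went through 3 fluidics runs, each with 1 array of every group, and run was a block in the fit. Arrays are named below by their run, and values in series are always in the order run 1, run 2, run 3. The samples of run 1 carry letters in their titles and the samples of the later runs carry numbers, so a difference of run 1 and a difference of that sample set cannot be told apart. Among the 6 wild-type arrays, the RA array of run 1 alone came from a different chip lot. RA and chip lot therefore cannot be told apart in run 1, and the run block does not separate them. The median signal of the 6 wild-type arrays lay between 81.1 and 94.9. On the knockout-labelled vehicle array of run 1 it was 143, outside the range of all other arrays, and this array touches the wild-type results only through the shared spread. Signals are the authors' MAS5 intensities, a linear brightness scaled so that the trimmed mean of every array was 500, and levels of different genes are not compared with each other. Changes are differences of log2(signal + 16), which understates the change of dim genes. Fold values are computed from these changes unless given as "at least". Where only some arrays of the dimmer group were above the background level, their number is given, and the fitted change then rests in part on signals that cannot be told from background. Changes are given with the standard error (SE) of limma and a Benjamini-Hochberg adjusted p over all 45037 probe sets. A gene was called, and is said to have risen or fallen, at an adjusted p under 0.05.

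RA is made in the body from vitamin A and acts as a hormone of development. It enters the nucleus and binds the receptors RARα, RARβ and RARγ, which sit on DNA paired with an RXR partner at short repeated elements. Without RA the pair holds corepressors, and binding of RA exchanges these for coactivators. The genes first switched on include enzymes and carriers that control RA itself and the Hox genes that give cells a position along the body axis. In F9 cells RA also drives the exit from the stem cell state.

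RA changed 610 of 18193 measured genes, which is 3.35% of them. 327 genes (1.8%) rose and 283 (1.56%) fell. The rises were the larger changes: the median rise was 1.79-fold and the median fall 1.61-fold, and 37 genes rose and 9 fell by more than 4-fold. Every called gene changed in the same direction in all 3 runs, against 40.0% of all genes. The RA and vehicle arrays did not overlap for 269 of the raised and 235 of the lowered genes, and 17.9% of all genes had groups that did not overlap. The calls rest on the same values, so the shared direction and the lack of overlap follow in large part from the call and are no separate evidence. The median over all genes was 0.053 on the log2 scale. The median change of the raised genes was 1.04, 0.81 and 0.78 in the 3 runs, and that of the lowered genes -0.76, -0.67 and -0.66. Over probe sets the count was 949 of 45037 (2.11%), with 1.15% of probe sets higher and 0.959% lower in RA. It fell to 524, 451 and 516 probe sets without the RA array of run 1, run 2 or run 3, so the size of the count leaned on every one of the 3 RA arrays. The count was 211 probe sets with no run block, 175 with each array centred on its median, 52 without the intensity trend in limma's estimate of spread and 1906 with array weights. No called gene changed sign under any alternative tried. The fitted change is the same by design with no run block, a random run block or no intensity trend. It is also the same for the wild-type arrays alone and without any knockout-labelled array, so in these fits no sign could change. 220 of the 610 genes kept their call whichever of the 12 arrays was left out, 123 raised and 97 lowered.

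**Figure D1:**
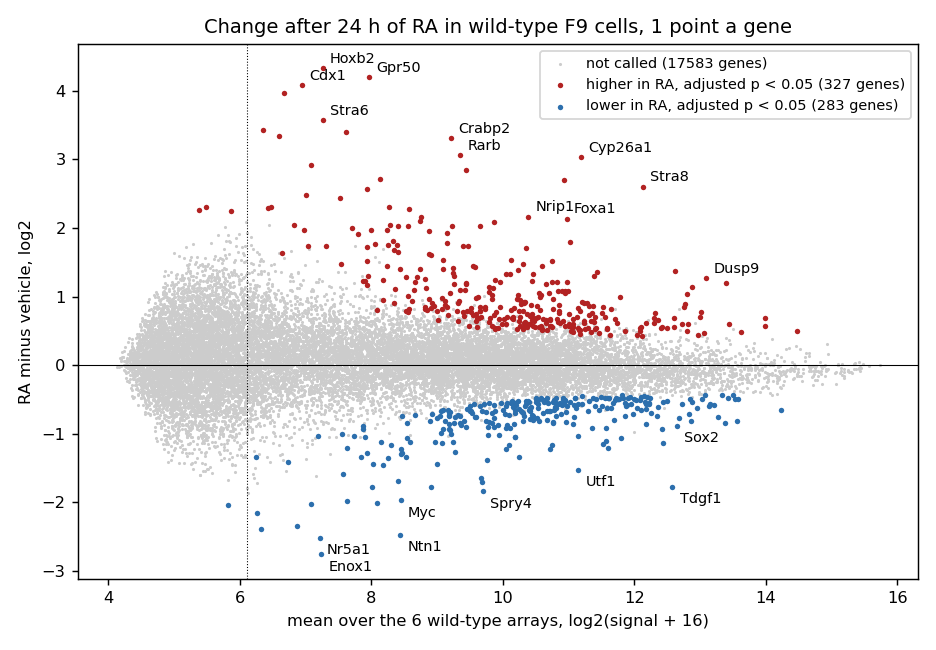
Each point is 1 of 18193 genes, with its mean log2(signal + 16) over the 6 wild-type arrays on the horizontal axis and the fitted log2 change of RA against vehicle on the vertical axis. Red points are the 327 genes that rose and blue points the 283 that fell, the dotted line marks the background level, and Hoxb2 and Enox1 are labelled. Fitted changes of genes with a group below background, Hoxb2 among them, depend on the pseudocount and are no measured size.

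Markers of the RA response differed between the arrays labelled as RA-treated and the vehicle arrays. Stra8, whose name records its discovery as a gene stimulated by RA and which germ cells need to enter meiosis, had signals of 2255, 1513 and 1723 in vehicle and 14701, 9359.6 and 9753 in RA. Rarb, which encodes RARβ and is a direct target of RA receptors, had signals of 180.0, 222 and 231 in vehicle and 1542, 1955 and 2158 in RA. On every run the RA array of both genes was far above all vehicle arrays. Stra8 rose by 2.60 on the log2 scale (6.07-fold, SE 0.13, limma adjusted p 4.67e-11) and Rarb by 3.06 (8.33-fold, SE 0.20, adjusted p 5.37e-09). Cyp26a1, the main enzyme that breaks RA down, went from 556, 896 and 1013 in vehicle to 6271, 6681 and 6993 in RA, a rise of 3.03 (SE 0.24, adjusted p 6.03e-08). Tdgf1, the coreceptor of the growth factor Nodal and a mark of F9 stem cells, moved the other way, from 10327, 11405 and 12209 in vehicle to 3229.7, 3406 and 3217 in RA. It fell by 1.78 on the log2 scale (SE 0.11, adjusted p 2.6e-09), and its groups did not overlap. These markers were named in advance from earlier results of the same arrays, so they cannot check the labels and are not separate evidence.

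The starts of Rarb and Cyp26a1 hold the kind of repeat to which an RAR and RXR pair is known to bind. They are shown for that repeat: these were the 2 of 265 raised genes where the search below found it spaced by 5 bases. The sequences are the 250 bases before the start of each gene in RefSeq, build GRCm38.p6, read 5′ to 3′ on the strand of the gene, with the half-sites of the repeat in capitals.
Rarb, chr14:16575477-16575726, minus strand: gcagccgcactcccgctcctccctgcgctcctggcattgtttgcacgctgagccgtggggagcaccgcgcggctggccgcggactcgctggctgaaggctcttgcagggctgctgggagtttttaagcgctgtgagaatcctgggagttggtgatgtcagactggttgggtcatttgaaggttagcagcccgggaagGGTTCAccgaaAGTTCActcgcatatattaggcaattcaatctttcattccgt
Cyp26a1, chr19:37697558-37697807, plus strand: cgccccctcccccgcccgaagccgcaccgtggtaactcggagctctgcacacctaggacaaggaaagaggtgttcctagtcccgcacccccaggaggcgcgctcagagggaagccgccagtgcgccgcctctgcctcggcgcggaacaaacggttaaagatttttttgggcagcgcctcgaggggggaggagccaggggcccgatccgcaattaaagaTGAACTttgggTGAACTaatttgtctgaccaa
The search took 4 half-sites, AGGTCA and AGTTCA as well as GGGTCA and GGTTCA, in direct repeats with 1, 2 or 5 bases between them, on both strands, from 250 bases before to 50 bases after each start. In Rarb the repeat lies at chr14:16575513-16575529 and begins 53 bases before the start. In Cyp26a1 it lies at chr19:37697776-37697792 on the strand opposite to the gene. Written side by side on the strand of the repeat, the matches share their second half-site and the spacing of 5 bases.
Rarb: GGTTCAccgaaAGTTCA
Cyp26a1: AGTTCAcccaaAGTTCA
Syndig1: GGGTCAcccctAGTTCA
Syndig1, at chr2:149830616-149830632 on the plus strand, is the third called gene with such a repeat and is shown because it fell in RA, by 1.58 on the log2 scale (SE 0.37, adjusted p 0.0228), with 2 RA arrays above background. The repeat spaced by 5 bases was found for 2 of 265 raised genes with a promoter in the table (0.755%), 1 of 227 lowered genes (0.441%) and 11 of 14452 measured genes (0.0761%), and in 0.0974% of all 32851 promoters searched. The repeat spaced by 1 base was found for 1 raised gene (0.377%), 1 lowered gene (0.441%) and 0.256% of measured genes, and that spaced by 2 bases for 0 raised genes, 1 lowered gene (0.441%) and 0.0969% of measured genes. A match is a description of letters in this window, and the promoters of Hoxb2 and Crabp2 are not in the table.

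The called genes of the list drawn up for retinoid metabolism and transport all rose. Of 32 measured genes of this list 6 rose (18.8%) and 0 fell, and the median change was 0.27, beside 0.053 over all genes. The median was 0.188 over the 21 members above background in a group, and 0.125 over the list without run 1. All 6 kept the call whichever array was left out, and 4 were called without the intensity trend. The list's 6 risers include the RA hydroxylase genes Cyp26a1 and Cyp26b1. Cyp26b1 was below the background level of 53.29 on all vehicle arrays (26.2, 16.7 and 4.44) and reached 232, 303 and 350.2 in RA, at least 4.43-fold higher (adjusted p 0.000601). The carrier genes rose as well. Crabp2, the cytoplasmic protein that brings RA to its receptors, had signals of 134, 224 and 169 in vehicle and 2569.8, 1485 and 1633 in RA, a rise of 3.30 (SE 0.32, adjusted p 1.68e-06). Its groups were far apart, although the RA arrays differed among themselves, with run 1 the highest. Stra6, the membrane receptor that takes up retinol, was below background in vehicle (42.8, 18.2 and 28) and at 542, 536 and 463 in RA, at least 7.63-fold higher (adjusted p 5.56e-05). Dhrs3, a reductase that returns retinal to retinol, rose by 1.92 (SE 0.34, adjusted p 0.00217) from 132, 51.2 and 135 to 391, 373 and 496, with 2 vehicle arrays above background. Tgm2, the tissue transglutaminase long known as an RA target, rose by 2.10 (SE 0.33, adjusted p 0.000562).

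The enzymes that make RA were not among the called genes. Aldh1a1, Aldh1a2 and Aldh1a3, the retinal dehydrogenases, had mean signals of 34.2 ± 37.7, 43.6 ± 27.2 and 37.3 ± 23.9 in vehicle (mean ± SD, n = 3, as in all such values) and 72.8 ± 50.5, 38.2 ± 49.4 and 49.8 ± 21.9 in RA. These are at or near the background level, where a change could not be measured well. Crabp1, the other cellular RA-binding protein, stood at 252 ± 76.6 in vehicle and 174 ± 22.7 in RA, with overlapping groups (change -0.46, SE 0.27, adjusted p 0.604). Adh5, an alcohol dehydrogenase and a bright gene, had a change of -0.26 (SE 0.11, adjusted p 0.317).

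**Figure D2:**
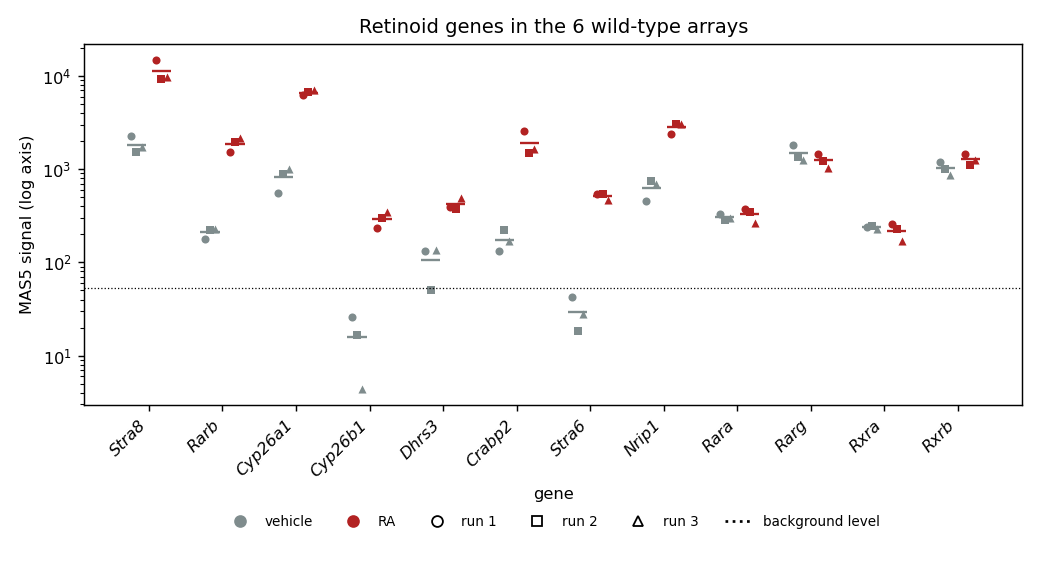
Points are the MAS5 signals, on a log axis, of 12 retinoid genes on the 6 wild-type arrays, with the marker shape giving the run, short lines the group means and the dotted line the background level. Stra8, Rarb, Cyp26a1, Cyp26b1, Dhrs3, Crabp2, Stra6 and Nrip1 have RA arrays above all vehicle arrays, while the points of Rara, Rarg, Rxra and Rxrb overlap.

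Among receptors and their coregulators, 3 of 31 measured genes rose (9.68%), 0 fell, and the median change was 0.28. Rarb has been described. Nrip1, which encodes RIP140, a corepressor that docks on nuclear receptors that carry their hormone, had signals of 454, 743 and 687 in vehicle and 2361, 3078 and 3062 in RA. It rose by 2.17 (4.49-fold, SE 0.14, adjusted p 2.6e-09), and 4 of its 6 probe sets were called. Nr2c2, the orphan receptor TR4, went from 999, 1235 and 1288 to 1615, 1668 and 1878 and rose by 0.55 (SE 0.13, adjusted p 0.0237). The call was lost without the RA array of run 1 or run 3 or the vehicle array of run 2 or run 3 (highest adjusted p 0.212). With array weights 8 genes of this list rose, and 7 without run 1. Rarg, Rara, Rxra and Rxrb were not called. Rarg, the gene of the receptor named in the knockout label, had signals of 1809, 1356 and 1263 in vehicle and 1471, 1232 and 1027 in RA (change -0.24, SE 0.17, adjusted p 0.708). Rara had a change of 0.09 (SE 0.18, adjusted p 0.948), Rxra of -0.13 (SE 0.32, adjusted p 0.968) and Rxrb of 0.32 (SE 0.15, adjusted p 0.419). The coactivator genes Ncoa1, Ncoa3 and Ep300 and the corepressor enzyme gene Hdac3 had changes of 0.06, -0.10, 0.23 and -0.11, each less than 2 SE from 0.

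Hox genes of the anterior part of the clusters gave the highest share of called genes of any list examined. All lists were chosen with earlier results of these data known, so their shares are a description and not a test. Hox proteins are homeodomain factors encoded in clusters, and the numbering of the groups follows their order along a cluster and along the body. Of 13 measured genes of groups 1 to 5, 8 rose (61.5%) and 0 fell, with a median change of 2.43. Hoxb1, Hoxb2, Hoxb3, Hoxb4 and Hoxb5, all the measured B cluster members of these groups, were among them, with Hoxa3, Hoxa4 and Hoxa5 from the A cluster. 7 of the 8 kept the call whichever array was left out, and the exception, Hoxa3, lost it without the vehicle array of run 1 or the RA array of run 2 or run 3 (highest adjusted p 0.142). Without the intensity trend 3 were called.

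Hoxb2, a hindbrain gene, was below background on every vehicle array (32.4, 14.4 and 11.2) and had signals of 933, 617 and 523 in RA, at least 9.91-fold higher (adjusted p 1.71e-06). Hoxa4 went from 12.6, 13.5 and 4.07, all below background, to 392, 376 and 387, at least 5.78-fold higher (adjusted p 0.000359). Hoxb5 went from 5.95, 10.5 and 10.8 to 344, 188 and 248, at least 3.88-fold higher (adjusted p 0.000311). For these genes the vehicle signal sets only a bound, because it cannot be told from background. Hoxb1, the most anterior member of the B cluster and a known direct RA target, had signals of 58.1, 27.8 and 52.1 in vehicle and 793, 575 and 522 in RA, and 1 of its vehicle arrays was above background (fitted rise 3.40, SE 0.50, adjusted p 0.000279). Hoxa5 was already measurable without RA, at 525, 948 and 844, and reached 4312, 5418 and 5164, a rise of 2.70 (SE 0.28, adjusted p 3.4e-06). Its vehicle arrays were all well above background and all below the lowest RA array. Hoxb3 and Hoxb4 rose by 2.48 (SE 0.43, adjusted p 0.00149) and 2.43 (SE 0.41, adjusted p 0.00117), and Hoxa3 by 2.02 (SE 0.43, adjusted p 0.0101). 1 vehicle array of Hoxb3 and 2 of Hoxb4 were above background.

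The remaining genes of groups 1 to 5 were dim. Hoxa2 stood at 57.9 ± 15.5 in vehicle and 156 ± 29.1 in RA, with groups that did not overlap but a change of 1.23 that was not called (SE 0.53, adjusted p 0.363). Hoxc4 was at 25.5 ± 23.3 and 126 ± 44.2 (change 1.87, SE 0.58, adjusted p 0.12). For Hoxc5, Hoxd1 and Hoxd3 the groups overlapped, with changes of 0.89, -0.01 and 0.75 and SE of 0.63, 0.55 and 0.60. Further along the clusters the picture was different. Of 20 measured genes of groups 6 to 13, 1 rose (5%) and 0 fell, and the median change was 0.03. With no run block, or without the intensity trend, none was called. The called gene, Hoxb13, stayed dim, at 5.88, 10.4 and 17.3 in vehicle and 63.9, 170.0 and 122 in RA, and lost the call when the vehicle array of run 1 or run 2, or the RA array of run 2 or run 3, was left out. Hoxa10 and Hoxa11, named as uncalled members, had changes of 0.32 (SE 0.47) and -0.24 (SE 0.49).

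**Figure D3:**
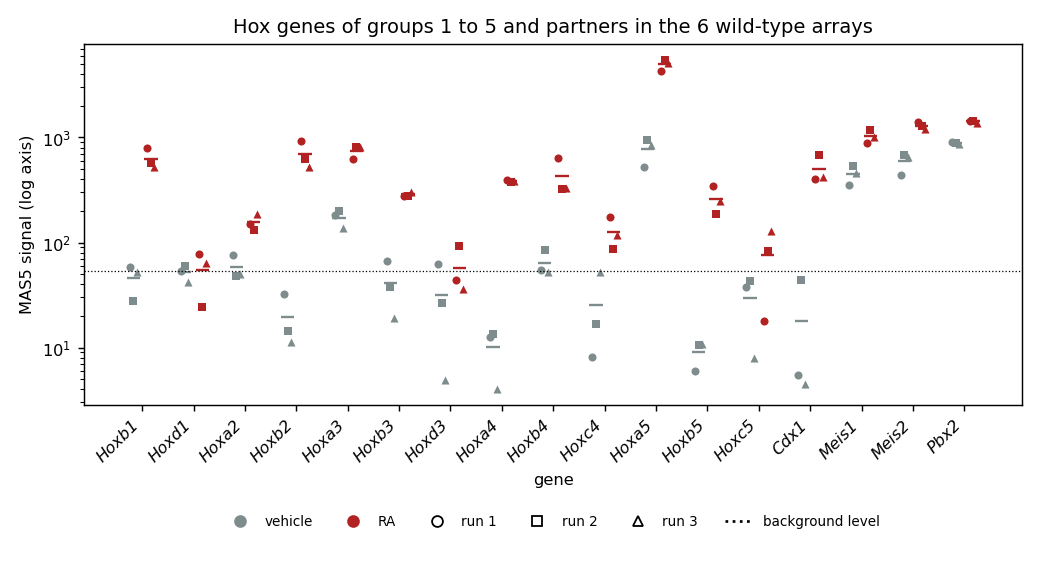
Points are the MAS5 signals, on a log axis, of the 13 measured Hox genes of groups 1 to 5 and of Cdx1, Meis1, Meis2 and Pbx2 on the 6 wild-type arrays, with the marker shape giving the run, short lines the group means and the dotted line the background level. The vehicle points of Hoxb2, Hoxa4, Hoxb5 and Cdx1 lie below the dotted line and their RA points above it, whereas the points of Hoxd1, Hoxd3 and Hoxc5 overlap.

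Some genes whose products work with Hox factors or act before them rose. Of 18 measured genes of this list 4 rose (22.2%) and 1 fell (5.56%), against 1.8% and 1.56% of all genes. The median change was 0.45. Cdx1, a homeodomain regulator of Hox genes and a known RA target, went from 5.54, 44.1 and 4.49, below background, to 401, 683 and 422 in RA, at least 7.27-fold higher (adjusted p 8.61e-05). Meis1, Meis2 and Pbx2, which encode partners that bind DNA with Hox proteins, rose by 1.18 (SE 0.24, adjusted p 0.00842), 1.13 (SE 0.18, adjusted p 0.000531) and 0.67 (SE 0.14, adjusted p 0.00869). Gbx2, a homeodomain gene of the anterior hindbrain, fell by 1.04 (SE 0.26, adjusted p 0.0385), with overlapping groups. The count of raised genes was 2 with no run block and 1 without the intensity trend, where Gbx2 was not called in either. Without the RA array of run 2 it was 2, and Gbx2 kept its call in 4 of the 12 fits that left out an array, failing without any wild-type array but the RA array of run 1 and without 3 of the knockout-labelled arrays.

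Some genes of the stem cell state fell. The list of pluripotency genes had 64 measured members, of which 20 fell (31.2%, against 1.56% of all genes) and 2 rose, with a median change of -0.29. 13 of the 20 kept the call whichever array was left out, and at least 16 were called in each of those fits. The count was 9 with no run block, 14 with run as a random block, 8 with centred arrays, 3 without the intensity trend and 25 with array weights. In a bulk sample, fewer stem cells and less RNA of a gene per cell cannot be told apart. The core factor Sox2 had signals of 8830.4, 8440.2 and 8869 in vehicle and 4049.9, 4984 and 5149 in RA and fell by 0.89 (SE 0.12, adjusted p 0.00011). The other core factors were not called. Pou5f1, which encodes OCT4, had signals of 22271, 17908 and 16708 in vehicle and 17600.3, 12743 and 14763 in RA, a change of -0.34 (SE 0.13, adjusted p 0.257). Nanog, looked up after the lists were seen, had signals of 8356, 7997 and 8888 and 6903, 6632 and 6766, a change of -0.31 (SE 0.11, adjusted p 0.223). All 3 runs gave a negative difference for both, between -0.18 and -0.49 for Pou5f1 and between -0.27 and -0.39 for Nanog. Dppa5a and Klf5, bright stem cell genes, had changes of -0.01 (SE 0.15) and -0.13 (SE 0.14).

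Other members of the list fell further. Utf1, a chromatin factor of undifferentiated cells, went from 4631, 3784 and 3213 in vehicle to 1761, 1155 and 1115 in RA and fell by 1.53 (SE 0.11, adjusted p 2.15e-08). Otx2, a homeodomain factor of the epiblast and the anterior head, went from 701, 441 and 679.8 to 128, 177 and 228 and fell by 1.69 (SE 0.17, adjusted p 2.87e-06). Myc, a regulator of growth and proliferation, went from 684, 626 and 713 to 174, 152 and 153 and fell by 1.97 (SE 0.22, adjusted p 1.26e-05). For all 3 genes every RA array was below every vehicle array. Prdm14, a repressor that guards the naive state, fell by 0.93 (SE 0.16, adjusted p 0.0017). Zfp42, also called Rex1, and Eras, an embryonic stem cell Ras gene, were picked after their values were seen. They fell by 0.84 (SE 0.13, adjusted p 0.000531) and 1.03 (SE 0.14, adjusted p 0.00013). The list's 2 risers, Lifr, a receptor chain for the cytokine LIF, and Lefty1 rose by 0.55 (adjusted p 0.0189) and 0.49 (adjusted p 0.0451). Neither was called without the vehicle array of run 1 or run 3 or any one of the RA arrays, and Lefty1 kept its call in 3 of 12 such fits.

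**Figure D4:**
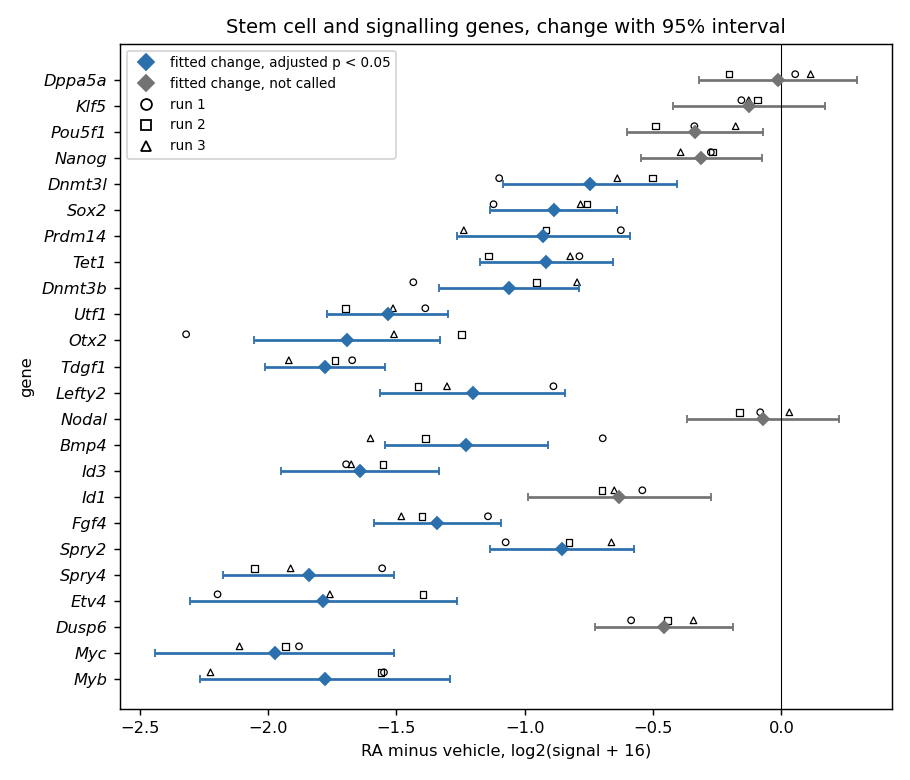
Diamonds are the fitted log2 changes of RA against vehicle with 95% intervals for stem cell, Nodal, BMP and FGF genes, blue where the gene was called, and open symbols above each diamond are the differences within run 1, 2 and 3. Dppa5a, Klf5 and Nodal have intervals that include 0, while Tdgf1 (-1.78), Spry4 (-1.84) and Myc (-1.97) have all runs on the negative side.

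The genes of FGF signalling fell more often than they rose. FGF4 is the growth factor by which stem cells of this kind stimulate their own ERK pathway, and Sprouty, SPRED and DUSP proteins are feedback inhibitors that ERK activity induces. 7 of 50 measured genes fell (14%) and 2 rose, with a median change of -0.03. With centred arrays 3 fell, and without the intensity trend 2. Fgf4 had signals of 2023, 1939 and 1764 in vehicle and 907, 725 and 622 in RA, groups that did not overlap, and fell by 1.34 (SE 0.12, adjusted p 3.7e-07). Spry4 went from 1574, 1689.6 and 1417 to 525, 395 and 365 and fell by 1.84 (SE 0.16, adjusted p 3.07e-07). Etv4, an ETS factor switched on by FGF, went from 859.8, 839 and 913 to 175, 309 and 259 and fell by 1.78 (SE 0.25, adjusted p 0.000155). Spry2 and Spred1 fell by 0.85 (SE 0.14, adjusted p 0.000616) and 0.86 (SE 0.16, adjusted p 0.00286). Dusp6, the ERK phosphatase, had a change of -0.46 that was not called (SE 0.13, adjusted p 0.0755). Dusp9, another phosphatase of ERK, did the opposite: its signals were 6691, 5207 and 5069.6 in vehicle and 13522, 12620.2 and 14444 in RA, and it rose by 1.27 (SE 0.12, adjusted p 1.68e-06) with all 3 of its probe sets called. Sos1 was the list's other riser (0.68, adjusted p 0.0319), with overlapping groups and no call without the vehicle array of run 1 or any one of the RA arrays.

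Some genes of Nodal and BMP signalling fell. 5 of 62 measured genes of the TGF-beta, BMP and Nodal list fell (8.06%) and 3 rose (4.84%), against 1.56% and 1.8% of all genes. The median was 0.01, with 31 negative and 31 positive changes. Leaving out the run block, 4 fell and 1 rose, and without the intensity trend 2 and 0. Beside Tdgf1, Lefty2, a secreted inhibitor and target of Nodal, went from 3824, 5212 and 5094 to 2059, 1944 and 2055 and fell by 1.20 (SE 0.17, adjusted p 0.000225). Its neighbour gene Lefty1, of the same function, rose, as given above. Nodal itself had signals of 6139.5, 4207 and 4001 and 5797, 3755 and 4088, a change of -0.07 (SE 0.14, adjusted p 0.949). Bmp4, a ligand, went from 1563, 3224 and 3289 in vehicle to 959, 1224 and 1074 in RA and fell by 1.23 (SE 0.15, adjusted p 3.97e-05), with the smallest difference in run 1. Id3, a target of BMP signalling that blocks differentiation factors, went from 1609, 1244 and 1416 to 486, 414 and 432 and fell by 1.64 (SE 0.15, adjusted p 4.61e-07). Id1, from the same family, had a change of -0.63 that missed the threshold (SE 0.17, adjusted p 0.0611). Tgfbr3, the TGF-beta coreceptor betaglycan, rose by 1.33 (SE 0.18, adjusted p 0.000132). Without the wild-type vehicle array of run 3 or the RA array of run 1 it was the only riser of the list.

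In the Wnt list 5 of 66 measured genes rose (7.58%) and 1 fell, with a median of 0.21. With centred arrays 3 rose, and without the intensity trend 0. The risers described here act at the cell surface or as modulators. Dact1, a cytoplasmic modulator of the pathway, went from 334, 258 and 256 to 1039.6, 1329.9 and 1228 and rose by 2.03 (SE 0.26, adjusted p 5.91e-05). Sfrp5, a secreted Wnt antagonist, went from 148, 177 and 145 to 606, 1001 and 899.6 and rose by 2.28 (SE 0.31, adjusted p 0.000135). The Frizzled receptor genes Fzd4 and Fzd7 rose by 1.21 (SE 0.25, adjusted p 0.00773) and 0.86 (SE 0.13, adjusted p 0.000283), and Tnfrsf19, a Wnt target also called Troy, by 1.33 (SE 0.18, adjusted p 0.000121). Wnt6, a ligand, fell by 1.01 (SE 0.20, adjusted p 0.00552). Ctnnb1, which encodes beta-catenin, had a change of 0.06 (SE 0.12).

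Several genes that write or remove DNA methylation fell. In the list of Polycomb and DNA methylation genes 5 of 49 measured genes fell (10.2%) and 1 rose, with a median of 0.02. With no run block 0 fell, with a random block 2 and without the intensity trend 0. Dnmt3b, a methyltransferase that sets new methylation, went from 7812, 4109 and 4209 to 2882, 2113 and 2417 and fell by 1.06 (SE 0.13, adjusted p 3.97e-05). Its cofactor Dnmt3l fell by 0.75 (SE 0.16, adjusted p 0.0132) and Uhrf1, which brings the maintenance enzyme to DNA, by 0.70 (SE 0.12, adjusted p 0.00105). Tet1, which oxidises methylated cytosine, went from 2265, 5924 and 5276 to 1306, 2679 and 2976 and fell by 0.92 (SE 0.12, adjusted p 0.000118). Both Tet1 groups were low in run 1, so that the groups overlapped while every run showed a fall. The Polycomb genes were divided: Phc1 fell by 0.55 (SE 0.11, adjusted p 0.00763), Mtf2 rose by 0.71 (SE 0.16, adjusted p 0.0217), and Jarid2 had a change of 0.06 (SE 0.11). Mtf2 was not called without the vehicle or the RA array of run 1.

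Among regulators of the G1 phase 5 of 40 measured genes fell (12.5%, against 1.56% of all genes) and 1 rose (2.5%). The lowered count was 2 with no run block, with centred arrays 1 and without the intensity trend 0. Beside Myc, the cyclin genes Ccnd1 and Ccnd3 fell. Ccnd1 went from 2069.6, 1669.5 and 1624 to 1019.8, 1012 and 1029 and fell by 0.79 (SE 0.14, adjusted p 0.00283), and Ccnd3 went from 5656, 5633 and 5625 to 3629, 4045 and 3753 and fell by 0.57 (SE 0.11, adjusted p 0.0042). Btg2 and Gadd45a, which slow the cell cycle in other settings, fell too, by 0.80 (SE 0.16, adjusted p 0.00513) and 0.69 (SE 0.16, adjusted p 0.0181). The riser, Cdkn2d, an inhibitor of cyclin-dependent kinases, stood near the threshold (0.53, adjusted p 0.0476) and kept the call in 3 of 12 fits that left out an array. Without the RA array of run 3 the count of lowered genes was 3. Genes of replication and mitosis were mostly not called: 2 of 51 fell (3.92%) and 0 rose, and Pcna had a change of -0.09 (SE 0.12). None of them was called with no run block or without the intensity trend, and 5 fell with array weights. The 2 that fell, Rfc4 and Mcm10, by 0.50 and 0.48, were both uncalled without the vehicle array of run 3 or the RA array of run 2, and 1 of them was called without any other single wild-type array.

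Markers of the endoderm, the fate for which F9 cells are known, were for the most part not called at 24 h. 2 of 48 measured genes rose (4.17%, against 1.8% of all genes), 0 fell, and the median was -0.004. The counts were 6 raised and 2 lowered in a fit of the wild-type arrays alone, 6 and 0 with array weights, and 6 and 3 without run 1. They were 4 and 0 without the wild-type vehicle array of run 1. Foxa1, a pioneer factor of endoderm, had signals of 978, 898 and 949.8 in vehicle and 4129.9, 4318 and 4128 in RA and rose by 2.14 (SE 0.21, adjusted p 2.14e-06). Stra6 was the other. The endoderm factors Gata6 and Sox7, looked up after the lists were seen, had signals of 1990.3, 1897 and 1768 and 1724, 1961 and 1893 in vehicle and 2557, 3800.4 and 2799 and 2354, 3361 and 2898 in RA. For both genes every RA array was above every vehicle array. Their changes of 0.67 (SE 0.31, adjusted p 0.43) and 0.61 (SE 0.41, adjusted p 0.689) were not called. Both passed in a fit of the 6 wild-type arrays alone (limma adjusted p 0.0356 and 0.0225). Several matrix and uptake genes of endoderm were bright before RA. Sparc had a mean signal of 25890.0 ± 662 in vehicle and 25577 ± 1241 in RA, Cubn 10692 ± 1972 and 9328 ± 2694, and Dab2 9776 ± 1371 and 7594 ± 974. Col4a1, a collagen IV chain, stood at 15638 ± 393 and 15819 ± 1984. The changes of these genes were -0.02 (SE 0.22), -0.23 (SE 0.52), -0.36 (SE 0.42) and 0.01 (SE 0.35), none of them called. In the basement membrane list Fbln1 alone was called among 41 measured genes (2.44%). It rose by 0.55 (adjusted p 0.0261) and was not called without the vehicle or RA array of run 2 or run 3. Ttr, a mark of visceral endoderm, stood at 61.5 ± 6.63 and 70.3 ± 24, near the background level.

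Epithelial genes moved in both directions, 2 up and 2 down of 52 (3.85% each, against 1.8% and 1.56% of all genes). The desmosomal genes Dsc2 and Dsp rose by 1.92 (SE 0.32, adjusted p 0.00112) and 0.83 (SE 0.13, adjusted p 0.00037), while Pkp2, also of desmosomes, and Cdh3, which encodes P-cadherin, fell by 0.88 (SE 0.14, adjusted p 0.000481) and 1.46 (SE 0.22, adjusted p 0.000347). All 4 kept the call whichever array was left out. With no run block, or run as a random block, 0 rose and 1 fell, and without the intensity trend 0 and 0. Cdh1, E-cadherin, had a change of 0.08 (SE 0.13).

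Of neural and ectodermal genes 7 of 66 rose (10.6%) and 3 fell (4.55%), with a median of 0.18. Without the run block 3 rose, and without the intensity trend 0. Sox4, a factor of progenitor cells, went from 1469.8, 1897 and 1754 to 3868, 4484 and 4229.7 and rose by 1.29 (SE 0.13, adjusted p 2.15e-06). Mdk, which encodes midkine, a growth factor first found as an RA-induced gene, rose by 0.69 (SE 0.12, adjusted p 0.0011). Irx3, a homeodomain gene of the neural tube, rose by 1.23 (SE 0.23, adjusted p 0.00286). The neuronal tubulin gene Tubb3 fell by 0.71 (SE 0.15, adjusted p 0.00872) and the neurofilament gene Nefl by 0.82 (SE 0.19, adjusted p 0.0184). The number of risers was 3 to 4 without the vehicle array of run 2 or run 3 or without any one of the RA arrays, and the number of fallers 1 without the RA array of run 2 or run 3. Sox4, Mdk and Irx3 rose in every one of these fits. Guidance genes held 3 risers and 1 faller among 67 (4.48% and 1.49%, against 1.8% and 1.56% of all genes). The faller, Ntn1, which encodes the guidance cue netrin-1, had signals of 879.5, 757 and 770.4 in vehicle and 123, 117 and 154 in RA, groups that did not overlap, and fell by 2.48 (5.57-fold, SE 0.20, adjusted p 7.4e-08). The risers were Plxna2, a semaphorin receptor gene (1.77), and the ephrin receptor genes Epha2 (0.69) and Epha4 (0.77), and without the RA array of run 1 or run 3 only 1 of these was called. Counts of guidance genes were 0 raised and 1 lowered with no run block, and the same counts came without the intensity trend. Mesoderm and streak genes had 0 risers and 1 faller (2.63%), Bmp4, among 38, and trophectoderm genes 0 and 0 among 23. The Notch list had 0 risers and 1 faller of 27 (3.7%). That gene, Notch4, fell by 1.00 (adjusted p 0.0374) and kept its call in 3 of 12 fits.

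**Figure D5:**
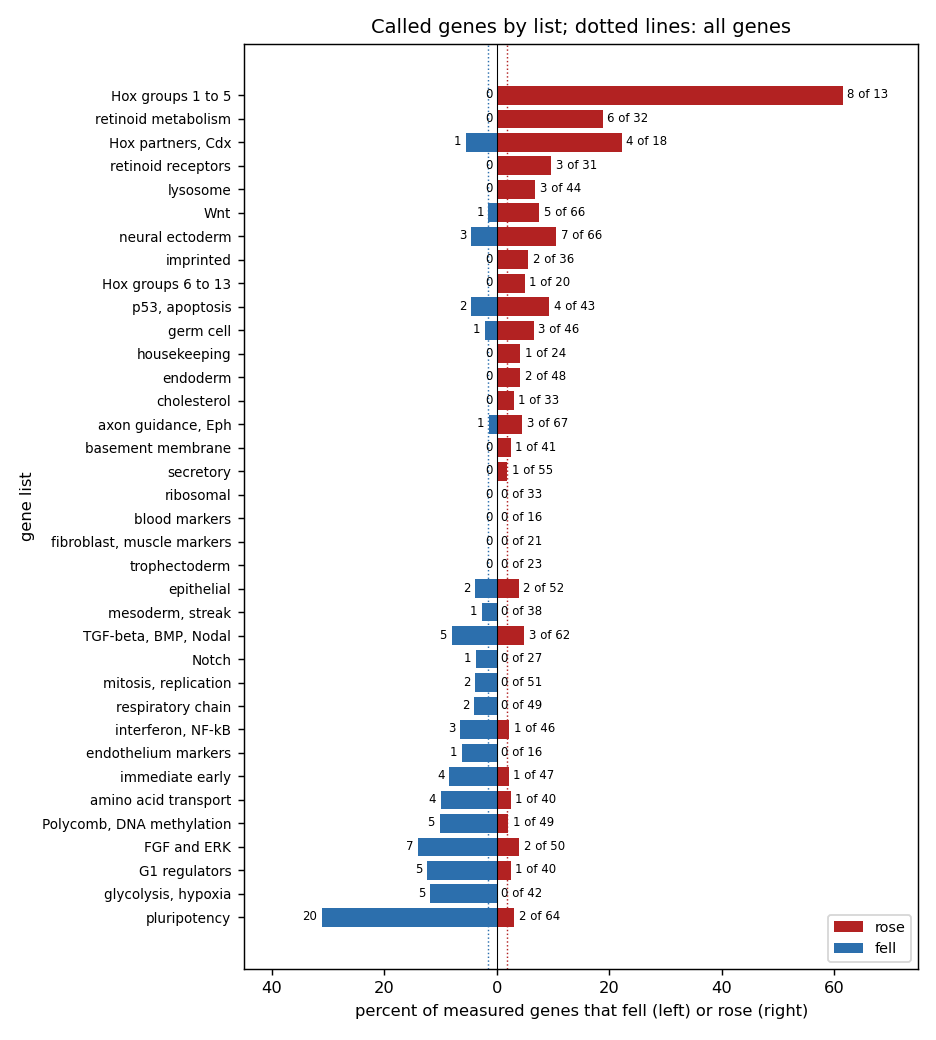
Bars give, for each of 36 gene lists, the percent of measured genes that rose (red, to the right) or fell (blue, to the left) in RA, with counts beside the bars and dotted lines at the 1.8% and 1.56% of all genes. Hox groups 1 to 5 with 61.5% raised and pluripotency with 31.2% lowered have the longest bars. The lists were chosen with earlier results of these data known.

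Among metabolic lists, the called glycolysis and hypoxia genes all fell, with 5 of 42 lowered (11.9%), 0 raised and a median of -0.19. With no run block 1 fell, without the intensity trend 0 and with quantile normalization 8. Pdk1, a kinase that keeps pyruvate from the mitochondria, went from 3567, 1952 and 2425 to 1219, 1045 and 1151 and fell by 1.16 (SE 0.14, adjusted p 3.4e-05). Epas1, which encodes HIF-2α, fell by 0.88 (SE 0.13, adjusted p 0.000367). Egln3, Hk2 and Tpi1 fell by 0.93, 0.57 and 0.49, and only Pdk1 and Epas1 kept the call whichever array was left out. Without the RA array of run 2 the list had 2 lowered genes, and without the RA array of run 3 or the vehicle array of run 1 it had 3. Amino acid genes had 4 lowered (10%) and 1 raised (2.5%) of 40, against 1.56% and 1.8% of all genes. These counts were 1 and 0 with no run block or run as a random block, and 0 and 0 without the intensity trend. Slc7a7, a transporter of basic amino acids, fell by 1.11 (SE 0.11, adjusted p 2.77e-06), and the glycine and serine enzymes Gldc and Shmt1 by 0.83 (SE 0.13, adjusted p 0.000407) and 0.69 (SE 0.12, adjusted p 0.00181). Slc1a5, a glutamine transporter, rose by 1.06 (SE 0.15, adjusted p 0.000137). Imprinted genes had 2 risers of 36 (5.56%, against 1.8% of all genes). They were Plagl1, a zinc finger factor (1.20, SE 0.20, adjusted p 0.000875), and Peg3 (0.52, adjusted p 0.0308). Only Plagl1 was called without the RA array of run 1 or run 3, the vehicle array of run 1 or run 2, or the knockout-labelled vehicle array of run 2. Neither was called with no run block, run as a random block, centred arrays or no intensity trend.

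Germ cell genes had 3 risers and 1 faller of 46 (6.52% and 2.17%, against 1.8% and 1.56% of all genes). Beside Stra8, the receptor gene Kit went from 532, 598 and 767 to 1207, 1432 and 1217 and rose by 1.02 (SE 0.16, adjusted p 0.000678), and Rec8, a meiotic cohesin gene, rose by 0.74 close to the threshold (SE 0.19, adjusted p 0.0486, called in 5 of 12 fits that left out an array). Ddx4, the germ cell helicase gene VASA, had a change of 0.56 (SE 0.23, adjusted p 0.318). Of the germ cell genes 2 rose with no run block, and without the intensity trend 1. In the p53 and apoptosis list 4 of 43 rose (9.3%) and 2 fell (4.65%). Among the risers were Bcl2l11, the death promoter BIM, at 0.87 (SE 0.16, adjusted p 0.00376) and Sesn1 at 0.90 (SE 0.12, adjusted p 0.0001). The counts were 2 raised without the vehicle array of run 2 or run 3, 1 raised without the RA array of run 1, and 0 lowered without the RA array of run 3 or the vehicle array of run 1. 1 gene was lowered without the vehicle or RA array of run 2 or the knockout-labelled RA array of run 2 or run 3. Immediate early genes had 4 fallers (8.51%) and 1 riser (2.13%) of 47. The fallers were led by the orphan receptor gene Nr4a1 (-0.90, SE 0.16, adjusted p 0.00201). It was the only faller called without the RA array of run 2, while 2 were called without that of run 3. The riser, Klf6 (0.71, adjusted p 0.0243), was not called without the vehicle array of run 2 or run 3 or the RA array of run 1 or run 3. The interferon list had 1 riser (2.17%), B2m (0.82, adjusted p 0.00177), and 3 fallers (6.52%) of 46. All 3 fallers lost the call without the RA array of run 1. In the fit with no run block the raised and lowered counts were 1 and 0 for the p53 list, 0 and 0 for immediate early genes and 0 and 1 for the interferon list, and without the intensity trend all were 0.

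The lists of lysosome (3 of 44 raised, 6.82%), secretory pathway (1 of 55, 1.82%) and sterol and fatty acid synthesis (1 of 33, 3.03%) had no lowered gene. Of all genes 1.8% rose. None of the risers of these lists was called without the RA array of run 1. With no run block, or without the intensity trend, none was called. For the lysosome the count was also 0 without the vehicle array of run 2 or run 3, and 1 without the RA array of run 2 or run 3. The respiratory chain list had 2 lowered of 49 (4.08%, against 1.56% of all genes). Neither was called without the vehicle array of run 1 or any one of the RA arrays. Without the vehicle array of run 2 or run 3 or the knockout-labelled RA array of run 3, 1 was called. None of 33 ribosomal protein genes was called in either direction, with a median of -0.06 and with Rps2 at -0.03 (SE 0.15). Of 24 housekeeping genes B2m alone was called (4.17%), and Actb and Eef1a1 had changes of -0.09 (SE 0.14) and 0.002 (SE 0.15). Markers of other cell types were counted in the same way, and their part in the results was not tested. Of 21 fibroblast and muscle markers 0 rose and 0 fell, and their summed signal lay between 1496 and 1977 on the vehicle arrays and between 1665 and 1752 on the RA arrays. The group mean was above background for 12 of them in vehicle and 9 in RA. For 16 blood markers the counts were also 0 and 0, with sums between 779 and 828 in vehicle and between 779 and 1483 in RA, and for 16 endothelium markers 0 and 1, with sums between 3276 and 3930 and between 3095 and 3393. 5 blood markers were above background in vehicle and 9 in RA, and 10 endothelium markers in each group. The fallen endothelium marker, Esam, had a change of -0.82 (adjusted p 0.0222). Esam, Fbln1, Notch4, B2m and both respiratory chain genes were not called with no run block or without the intensity trend. Esam was also not called without the vehicle array of run 1 or run 3 or any one of the RA arrays.

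Several of the largest changes were in genes outside these groups. Gpr50, an orphan receptor related to the melatonin receptors, had signals of 31.8, 56.2 and 41.2 in vehicle and 805, 1271 and 1133 in RA and rose (fitted change 4.20, SE 0.58, adjusted p 0.000147), with both of its probe sets called. Only 1 of its vehicle arrays was above background, so the size is uncertain. Gas1, a membrane protein that binds Hedgehog ligands, went from 357, 180.1 and 220.2 to 1876, 1647 and 2012 and rose by 2.84 (SE 0.33, adjusted p 1.31e-05). Gfra3, a receptor of the GDNF family, went from 110.3, 59.3 and 91.8 to 295, 901 and 732 and rose by 2.57 (SE 0.44, adjusted p 0.00151). Run 1 gave the smallest difference for Gfra3 and for the zinc finger gene Zfp703, which rose by 2.72 (SE 0.38, adjusted p 0.000147) with 2 vehicle arrays above background. Mall, a membrane protein of the MAL family, was below background in vehicle (47.4, 17.2 and 41.5) and at 312, 414 and 353 in RA, at least 5.39-fold higher (adjusted p 0.000417). Slc51a, a subunit of a steroid and bile acid transporter, went from 119.5, 129.7 and 119.6 to 729, 609 and 680.0 and rose by 2.31 (SE 0.35, adjusted p 0.000359).

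The largest falls outside the lists included a further nuclear receptor. Nr5a1, which encodes steroidogenic factor 1, had signals of 455, 328 and 262 in vehicle and 31.9, 127 and 18.7 in RA and fell by 2.52 (SE 0.38, adjusted p 0.000318). The fall was smallest in run 2, all RA arrays were below all vehicle arrays, and only 1 RA array was above background. Enox1, a cell surface oxidase gene, went from 508, 364 and 288 to 68.4, 75.6 and 9.17 and fell (fitted change -2.76, SE 0.34, adjusted p 4.02e-05), with 2 RA arrays above background and a mean RA signal below it. Chrna9, a nicotinic receptor subunit gene, fell by 1.98 (SE 0.29, adjusted p 0.000279). Myb, a transcription factor of progenitor cells, went from 610.1, 371 and 434 to 198, 115 and 80.4 and fell by 1.78 (SE 0.23, adjusted p 8.22e-05). Lgals3, which encodes galectin-3, went from 1824, 1402 and 1228 to 608, 414 and 338 and fell by 1.70 (SE 0.15, adjusted p 2.25e-07). Platr10, a noncoding RNA named for its link to pluripotency, fell by 2.02 (SE 0.24, adjusted p 1.7e-05). In Chrna9 and Platr10 2 RA arrays each were above background.

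The RA change was compared with that of the cells labelled RAR gamma knock out by the difference of the changes within the same fit. Rarg itself was no lower on the arrays labelled knock out, with mean signals of 1476 ± 292 and 1636 ± 102 in wild-type and knockout-labelled vehicle samples and 1243 ± 222 and 1357 ± 288 with RA. Its other probe set was at 1012 ± 291 and 1061 ± 161 in vehicle and 737 ± 83.4 and 968 ± 44.1 with RA. Whether either probe set reads the deleted part of the gene is not given in the sources used here, so these values do not check the label, and the direction of each difference rests on the label alone. The change differed for 16 of 18193 genes (0.0879%), of which 13 were called in wild type. Tdgf1 fell by 1.78 in wild type, and its change in the knockout-labelled cells was -0.47, a difference of 1.31 (SE 0.16, adjusted p 0.00188). Fgf4 and Utf1 had changes of -0.25 and -0.51 in the knockout-labelled cells, differences of 1.09 (SE 0.17, adjusted p 0.0116) and 1.02 (SE 0.16, adjusted p 0.0116). Gpr50 had a fitted change of 4.20 in wild type and of -1.51 in the other cells, a difference of -5.71 (SE 0.83, adjusted p 0.00761). Of the other cells' Gpr50 arrays 1 in vehicle and 0 in RA were above background, so the size of this difference is uncertain. Sfrp5, Esyt3, Pik3r1 and Sox4, risers in wild type, had changes of -0.32, 0.08, 0.34 and 0.27 there, and differences of -2.59, -1.65, -1.36 and -1.02, with SE of 0.44, 0.28, 0.24 and 0.18. These calls lean on the knockout-labelled vehicle array of run 1: without it 2 probe sets were called in place of 22, which is 0.0488% of all (between 4 and 18 without any other single array), 0 with no run block and 0 without the intensity trend. Of the 16 genes only Tdgf1 (adjusted p 0.0228) and Gpr50 (adjusted p 0.0244) passed without that array. Without all arrays of run 1, a fit chosen after seeing the data, 11 probe sets were called. Tdgf1, Fgf4, Utf1 and Esyt3 then passed (limma adjusted p 0.00579, 0.0125, 0.0240 and 0.0333). Gpr50 (0.0505), Sfrp5 (0.0926), Pik3r1 (0.0796) and Sox4 (0.0505) did not. The difference of Fgf4 was 1.11, 1.07 and 1.09 in the 3 runs. The median difference over all probe sets was -0.16, and it was 0.01 with quantile normalization and 0.18 with centred arrays, so a difference near these sizes is not told from the scaling. A difference that was not called does not show that the cells respond alike. For Rarb the difference of the changes was -0.73 (SE 0.29, adjusted p 0.669), for Stra8 -0.59 (SE 0.18, adjusted p 0.511) and for Cyp26a1 -1.05 (SE 0.34, adjusted p 0.563).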

How the data were processed

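RNA of 12 F9 samples was measured on Affymetrix mouse arrays. The deposited values are linear MAS5 intensities, 1 per probe set and array, per the submitters' processing notes; the MAS5 version is not given in the sources used here. With 2% trimmed from each end, every array had a mean of 500. Instrument records deposited by the authors gave the fluidics run, the block of the fit. 64 control probe sets were left out, and limma 3.58.1, run in R 4.3.3 (eBayes after lmFit, intensity trend on, 6 residual degrees of freedom), tested 45037 probe sets on log2(signal + 16). For a gene with several probe sets, the brightest on average (log2) stood for the gene. Probe sets with several gene symbols (932) or none (9160) named no gene. The background level is the 95th percentile of 84 probe sets for taste, olfactory and vomeronasal receptors. A bound ("at least") sets the brighter group's mean against the higher of the dim signals and that level. Tables were made with Python 3.11.15 and pandas 2.3.3, and the fit was tested on simulated data. Promoters are from RefSeq.

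The members and gene lists were chosen with earlier results of these data known. Named were the 5 markers, called genes of each list by adjusted p, the brightest uncalled genes of a list, all retinoid genes and Hox groups 1 to 5, the largest rises and falls without overlap, and genes that differed between genotypes; the text gives a part of these. Alternatives covered the block, scaling, pseudocount, filter, trend, array weights, samples and each array left out. Each run held 1 array of every group, per the deposited instrument records, so the run block is also the paired analysis.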

Additional observations from a re-analysis of the deposited data

Results flagged for a closer look

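The RA change differed between the wild-type cells and the cells labelled RAR gamma knock out, by the test of the difference itself (limma, adjusted p under 0.05), for the genes named in the results and a few more. The values below are the change in the knockout-labelled cells minus the change in wild type, on the log2 scale. They were positive for Tdgf1 (1.31), Fgf4 (1.09), Utf1 (1.02), Dusp6 (1.00) and Lgals3 (1.42), where the wild-type change was negative. Wild type had changes of -0.46 for Dusp6 and -1.70 for Lgals3, and the knockout-labelled cells of 0.54 and -0.28. The wild-type change of Dusp6 was itself not called. They were negative for Gpr50 (-5.71), Sfrp5 (-2.59), Esyt3 (-1.65), Pik3r1 (-1.36), Lifr (-1.13) and Sox4 (-1.02), which rose in wild type. The size for Gpr50 is uncertain, since most of its arrays other than wild type with RA were below background. For Lifr the change was 0.55 in wild type and -0.59 in the knockout-labelled cells. Pla2g7 and Pcbd1 were not called in wild type (changes of 0.10 and -0.22). They had changes of -1.73 and 1.37 in the knockout-labelled cells, differences of -1.84 and 1.59. Prorp, Slc26a2 and Tcea3, called in wild type, had differences of 1.08, -1.14 and 1.11. Leaving out all of run 1, the differences of Tdgf1, Fgf4, Utf1, Dusp6, Lgals3, Esyt3, Lifr and Pla2g7 passed. Those of Gpr50, Sfrp5, Pik3r1, Sox4, Pcbd1, Prorp, Slc26a2 and Tcea3 did not. Without the knockout-labelled vehicle array of run 1 alone, only the differences of Tdgf1 and Gpr50 passed. That array had 316 minutes between its recorded run time and its scan, against 13, 32 and 41 for the other arrays of run 1. The knockout-labelled RA array of run 2 had 238 minutes. In run 3 the knockout-labelled vehicle and RA arrays came from different chip lots, so RA and lot cannot be told apart there. The part of these waits, of the lots and of the array's higher median signal in these differences was not tested.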

How the results depend on the processing

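The count of probe sets called for RA against vehicle in wild type, 949 in the fit described (517 higher and 432 lower in RA), depended on the fit. It was 211 (124 higher, 87 lower) with no replicate block, that is without run, 322 (195, 127) with run as a random block, 196 (116, 80) with chip lot as the block, 175 (107, 68) with arrays centred on their median, 52 (38, 14) without the intensity trend, 1906 (1028, 878) with array weights and 473 (261, 212) at an adjusted p under 0.01. Leaving out 1 array gave 451 to 1161, 254 to 626 higher and 197 to 535 lower. The cause was not tested. Quantile normalization, pseudocounts of 1 and 64, the background filter, 1 probe set per gene, the wild-type arrays alone (772) and leaving out run 1 (1337, chosen after seeing the data) stayed within 1.5 times the count. Among the 159 genes named, 117 of them called, 0 changed direction with a call under any of these, and the calls lost ranged from 0 with array weights to 96 without the intensity trend. Several of these fits leave the fitted change as it was by design, so in those no direction could change. The difference between genotypes, 22 probe sets, became 0 with no block (limma, 2084 at an unadjusted p under 0.05), 0 without the trend (2880 unadjusted), 2 with a random block, 1 with chip lot, 7 with quantile normalization, 1 with centred arrays, 11 above background, 50 with array weights, 4 at an adjusted p under 0.01, 11 without run 1 and 2 to 18 with 1 array left out. Dim genes have only bounds.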

Other observations

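Some genes of ribosome biogenesis, a group that stood in none of the lists used above, fell in wild-type F9 cells. These genes encode the nucleolar proteins that make and fold ribosomal RNA and build the ribosome, and MYC is known to drive many of them. The list was drawn up after the values were seen, so its counts are a description with no test. Of 97 measured genes 0 rose and 29 fell (29.9%, against 1.56% of all genes), and 90 had a negative change. The median change was -0.37, and -0.38, -0.41 and -0.40 in the 3 runs. Rrp12, an export factor of ribosomal subunits, had signals of 619.6, 473 and 565 in vehicle and 226, 289.5 and 222 in RA and fell by 1.12 (SE 0.17, adjusted p 0.000351). Tcof1, which encodes the nucleolar protein treacle, went from 1969, 1523 and 1498 to 906, 902 and 610.1 and fell by 1.04 (SE 0.15, adjusted p 0.000181). Nolc1, a nucleolar phosphoprotein, went from 3500.3, 3462 and 3806 to 1708, 2142 and 1834 and fell by 0.92 (SE 0.12, adjusted p 6.2e-05). In each of these genes all RA arrays were below all vehicle arrays. The ribosomal proteins themselves, with 0 raised and 0 lowered of 33, are given above. 13 of the 29 fell whichever array was left out, and the count was 15 without the RA array of run 2 and 17 without that of run 1 or run 3. The count was 11 with run as a random block, 7 with no run block, 6 with chip lot as the block, 2 with centred arrays, 0 without the intensity trend and 55 with array weights.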
